A study of Homo sapiens with 6 samples.

Results

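The 42 genes described here encode the subunits of the proteasome, the factors that help to assemble it and the activators that open it. They were chosen by function, as a list of gene symbols, and all 42 were found among the 26255 symbols of the RNA-seq data. They comprised the 7 alpha and 7 constitutive beta subunits of the core particle, 3 inducible catalytic subunits of the immunoproteasome, 9 subunits of the base and 8 of the lid of the regulatory particle, 3 chaperones that assemble the base, 4 activators and the maturation factor POMP.

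The libraries came from HCT116, an established human colorectal cancer cell line, with 2 libraries of parent cells, 2 of cells given the siRNA siLINC01534-1 and 2 of cells given the siRNA siLINC01534-2. Both siRNAs were directed against LINC01534, a long noncoding RNA that the study followed because of its level in cells with low proteasome activity. Nothing in the sources used here says that the parent cells received a control siRNA or the transfection reagent, so an effect of either siRNA and an effect of transfection cannot be told apart in a comparison with parent. The labels do not say whether the libraries of a group came from separate cultures, so the p-values measure the spread between libraries, which may be technical. The study's methods mention more cultures per group than the 2 libraries analysed here, and the interval between transfection and harvest was not given in the sources used here.

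The targeted RNA was examined before the proteasome genes. LINC01534 was measured at 0.285 and 0.571 FPKM (fragments scaled by transcript length and library size) in parent, 0 and 0.283 in siLINC01534-1 and 0.660 and 0.551 in siLINC01534-2. The siLINC01534-2 libraries therefore showed no fall of the targeted RNA, and all values were below 1 FPKM, so the check is weak for either siRNA. By qRT-PCR, the study reports a reduction of LINC01534 with each siRNA in HCT116 cells, compared with a negative control siRNA. Group names below are those of the labels. Of 7 epithelial markers, 6 had a mean of at least 1 FPKM and VIL1 was at or near 0. Their sum was 3458 to 3522 FPKM in parent, 2927 to 2932 in siLINC01534-1 and 3335 to 3521 in siLINC01534-2. The sum hides single markers. With siLINC01534-2, CDH1 and KRT19 were higher (limma, log2 changes 0.57 and 0.21, adjusted p = 0.0072 and 0.012) and none was called lower. With siLINC01534-1, KRT8, KRT18 and KRT19 were lower, with log2 changes of -0.34, -0.21 and -0.18, and none was called higher. The 6 markers of other cell types summed to 3.06 to 3.17 FPKM in parent, 5.39 to 5.99 in siLINC01534-1 and 4.03 to 4.53 in siLINC01534-2, nearly all from COL1A1, with CD3E at 0 in every library. COL1A1 was higher with siLINC01534-1 (log2 change 0.68, adjusted p = 0.0025). The part of these shifts in the changes below was not tested. Reads per library were estimated from the spacing of the FPKM values at 8690000 to 10400000.

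The proteasome degrades proteins that carry ubiquitin chains. Its core particle is a barrel of alpha and beta rings in which the beta subunits PSMB6, PSMB7 and PSMB5 hold the proteolytic sites, and in the immunoproteasome PSMB9, PSMB10 and PSMB8 take their places. The regulatory particle caps the barrel: the ATPases of its base unfold the substrate and thread it in, and the lid holds PSMD14, the enzyme that removes ubiquitin. When proteasome activity falls short, the transcription factor NRF1, encoded by NFE2L1, raises the genes of the core and the regulatory particle together, and interferon signalling raises the immunoproteasome subunits and the activators PSME1 and PSME2.

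Proteasome messages were abundant in parent cells. Per length, the mean over the 2 parent libraries was highest for PSMB4, a structural beta subunit, at 367 FPKM, and the median over the 42 genes was 134 FPKM. The order of the highest levels was PSMB4, PSMA7 at 353 and PSMB3 at 332 FPKM. The parent libraries of these neighbours lay at 363 and 371, 347 and 360, and 319 and 344 FPKM. These neighbours did not overlap, but the gap between them was smaller than the distance between replicates of each. Among the subunits that every constitutive particle needs, levels in parent differed by 6.90 times in the alpha ring, from PSMA5 at 51.2 to PSMA7 at 353 FPKM, by 6.20 times in the constitutive beta ring and by 2.11 times in the lid. The base chaperones PSMD5, PSMD9 and PSMD10 lay between 22.3 and 37.4 FPKM. PSMB10 had 43.1, PSMB9 2.77 and PSMB8 0.219 FPKM, and the last 2 were the lowest of the 42 genes. The plot of FPKM by library shows these levels for all 42 genes.

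**Figure D1:**
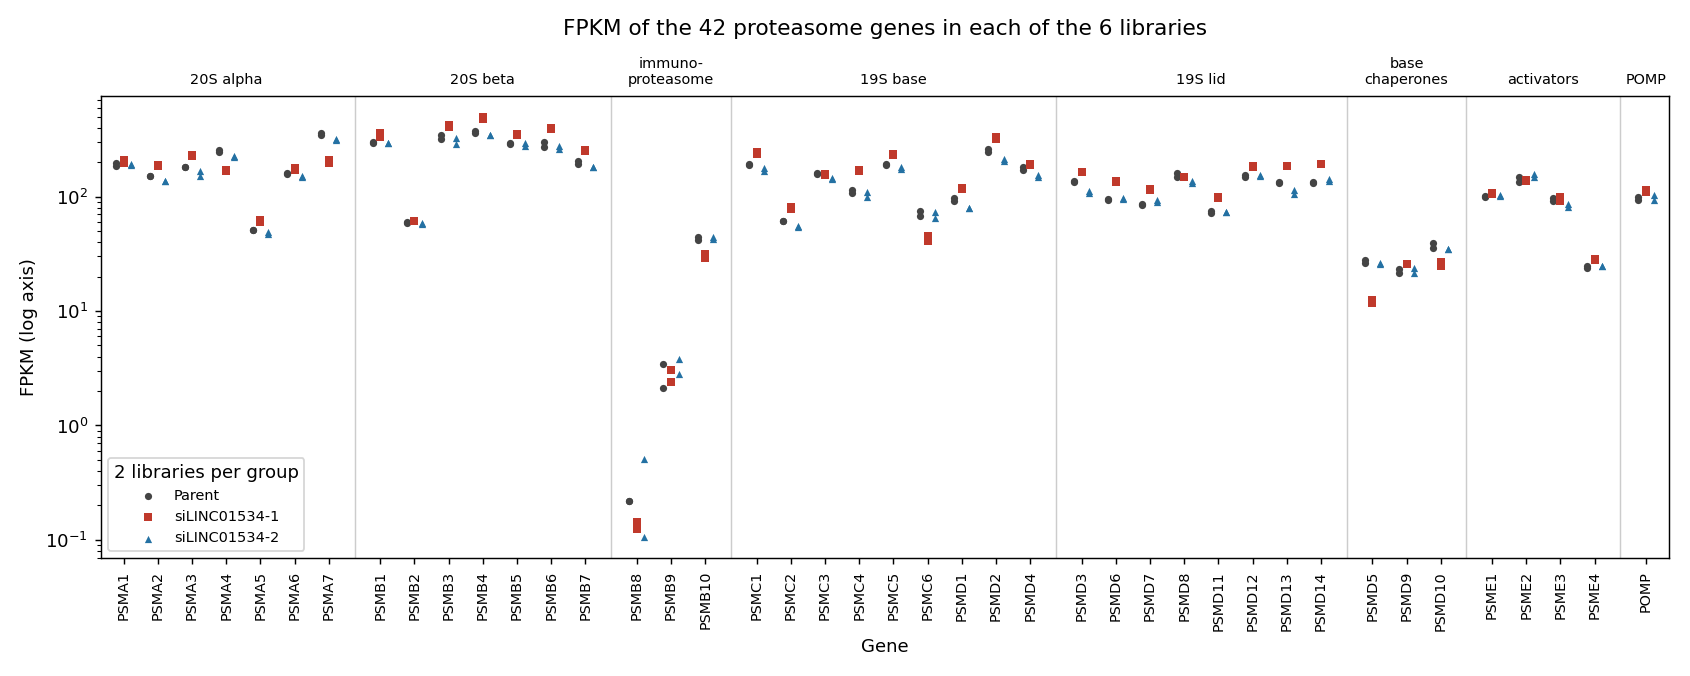
FPKM on a log axis (vertical) of the 42 proteasome genes (horizontal, by part of the particle) in each library of parent (circles), siLINC01534-1 (squares) and siLINC01534-2 (triangles). The libraries of a gene lie close together for most genes, PSMD5 is lower in both siLINC01534-1 libraries, and PSMB8 and PSMB9 lie far below the others.

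With siLINC01534-1, most proteasome genes rose and a few fell. Of 41 genes tested on log2(FPKM + 1), 26 were higher than in parent and 6 were lower (limma, adjusted p under 0.05). Over the 12203 genes tested, 21.8% were higher and 24.5% were lower in that comparison. The median log2 fold change of the 41 was 0.25 against 0.00 over all genes tested. PSMB8 was too low to be tested. The 9 genes not past the threshold were PSMA1, PSMB2, PSMB9, PSMC3, PSMD4, PSMD8, PSME1, PSME2 and PSME3. With any 1 library left out, the median log2 change of the 41 lay between 0.25 and 0.27. Fewer of them, and fewer of all genes tested, were called in each such run. The rises of PSMA6, PSMB1, PSMB3, PSMD9 and POMP were lost under at least 1 alternative, and each of these was lost without parent replicate 1.

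With siLINC01534-2, no proteasome gene was called higher and 11 were called lower, where 11.1% and 11.8% of all genes tested were called higher and lower. At an unadjusted limma p under 0.05, 1 was higher and 17 were lower, where 18.7% and 19.3% of all genes tested were. The median log2 fold change of the 41 was -0.09 against 0.00 over all genes tested. The 11 were PSMA2, PSMA4, PSMA7, PSMC2, PSMC3, PSMD1, PSMD2, PSMD4, PSMD3, PSMD8 and PSMD13, and their log2 changes lay between -0.13 and -0.30. The count fell with any 1 library left out, and so did the number called among all genes tested. This held also for the siLINC01534-1 libraries, which are not part of the comparison, so the fall does not single out a library. The median log2 change of the 41 lay between -0.10 and -0.06 in these runs. Only PSMD3, a scaffold subunit of the lid, was called lower under every alternative run.

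The comparisons with parent share the parent libraries, so their values are given side by side. The subunits PSMA2, PSMC2, PSMD1, PSMD2, PSMD3 and PSMD13 were higher with siLINC01534-1 and lower with siLINC01534-2, 6 of 41. Of all genes tested, 0.951% showed that pattern. Among the proteasome genes called lower with siLINC01534-2, only PSMD3 kept that call under every alternative run. PSMA4 and PSMA7 were lower with each siRNA, 2 of 41 against 6.52% of all genes tested. None was higher with each siRNA, where 6.99% of all genes tested were. With the mean of both siRNAs set against parent, 11 proteasome genes were higher and 7 lower, against 17.1% and 20.1% of all genes tested, with a median log2 change of 0.09. Without parent replicate 1 that median was 0.07, and fewer proteasome genes and fewer of all genes tested were called. The direct comparison of the siRNAs, which uses no parent library, called 27 genes higher and 6 lower in siLINC01534-1 than in siLINC01534-2, against 19.5% and 22.3% of all genes tested, with a median log2 difference of 0.30.

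**Figure D2:**
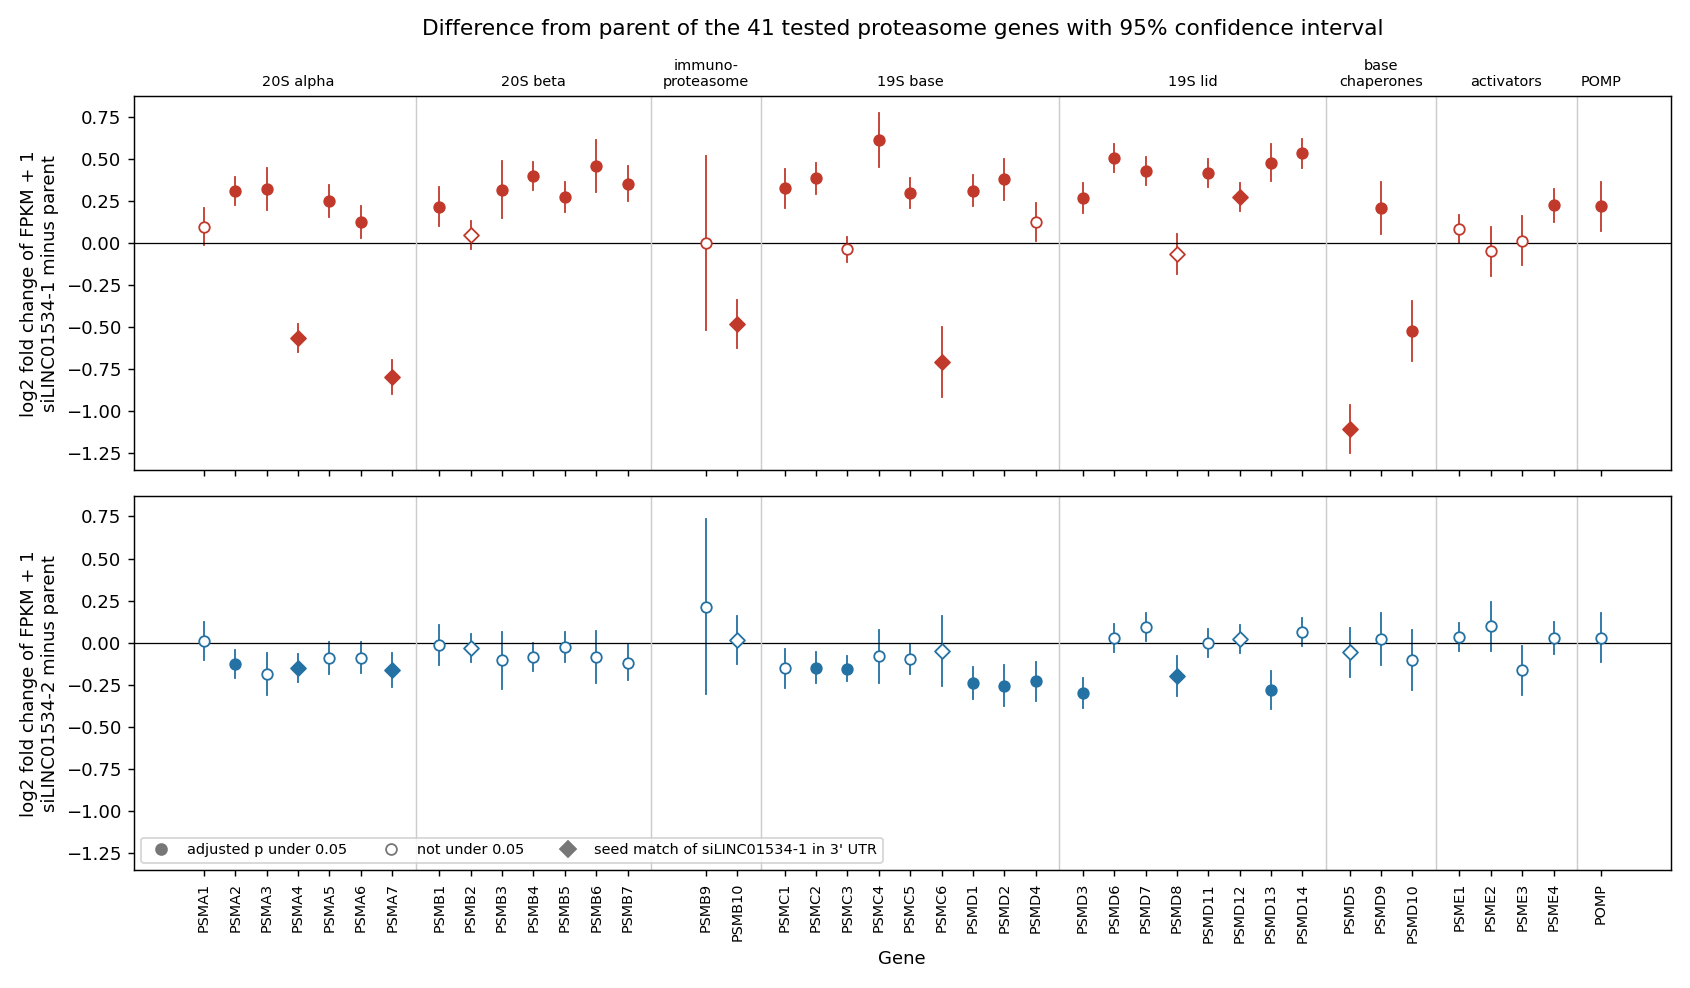
Log2 fold change of FPKM + 1 against parent (vertical) for the 41 proteasome genes tested (horizontal, by part of the particle), siLINC01534-1 above and siLINC01534-2 below, with 95% confidence intervals from limma. Filled symbols are past an adjusted p of 0.05 and diamonds are genes whose 3′ UTR holds a seed match of siLINC01534-1: with siLINC01534-1 the points spread from -1.11 to 0.61, and with siLINC01534-2 from -0.30 to 0.21.

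The largest fall with siLINC01534-1 was that of PSMD5, a chaperone that holds base ATPases during assembly and leaves the finished particle. PSMD5 had 28.2 and 26.1 FPKM in parent, 11.7 and 12.5 in siLINC01534-1 and 26.4 and 25.6 in siLINC01534-2. Both siLINC01534-1 libraries lay far below the other 4, and the siLINC01534-2 libraries overlapped the parent range. The log2 change was -1.11 (SE 0.058, adjusted p = 0.00014) with siLINC01534-1 and -0.06 (SE 0.058, adjusted p = 0.51) with siLINC01534-2. Of the 42 genes it was the only one whose ratio of mean FPKM to parent passed 2-fold with siLINC01534-1, where 5.84% of all genes tested passed, and none passed with siLINC01534-2, where 2.61% of all genes tested did. The antisense gene PSMD5-AS1 was measured at 1.51 and 1.68 FPKM in parent, 2.69 and 2.76 in siLINC01534-1 and 1.50 and 2.47 in siLINC01534-2. The library kit keeps the strand, but whether the counting used it was not stated.

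PSMD10 and PSMD9 are the other base chaperones. PSMD10, also known as gankyrin, had 39.7 and 35.2 FPKM in parent, 26.9 and 24.6 in siLINC01534-1 and 34.6 and 34.9 in siLINC01534-2. It was lower with siLINC01534-1 without overlap (log2 change -0.52, SE 0.072, adjusted p = 0.0029). PSMD9 moved the other way with siLINC01534-1, with a log2 change of 0.21 (SE 0.062, adjusted p = 0.039), a call that was lost when any 1 of the 4 parent and siLINC01534-1 libraries was left out. The summed FPKM of the 3 chaperones was 0.733 of parent with siLINC01534-1 and 0.960 with siLINC01534-2.

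In the alpha ring, whose subunits form the gate of the barrel, 4 of 7 genes rose with siLINC01534-1 and 2 fell. Over all genes tested, 21.8% rose and 24.5% fell with siLINC01534-1. PSMA7 had 347 and 360 FPKM in parent, 209 and 198 in siLINC01534-1 and 312 and 319 in siLINC01534-2. PSMA4 had 254 and 244 FPKM in parent, 169 and 167 in siLINC01534-1 and 226 and 223 in siLINC01534-2. For both genes the 3 groups did not overlap, with siLINC01534-1 lowest and parent highest. The log2 change of PSMA7 was -0.79 with siLINC01534-1 (SE 0.041, adjusted p = 0.00014) and -0.16 with siLINC01534-2 (adjusted p = 0.041). That of PSMA4 was -0.56 (SE 0.034, adjusted p = 0.00021) and -0.15 (adjusted p = 0.031). Their differences between the siRNAs were -0.63 and -0.41, both past the threshold. PSMA2, PSMA3, PSMA5 and PSMA6 were higher with siLINC01534-1, by log2 changes of 0.12 to 0.32, and PSMA1 had 0.10 (adjusted p = 0.13). As PSMA7 and PSMA4 are the most abundant messages of the ring, its summed FPKM was 0.916 of parent with siLINC01534-1 although most of its members rose. With siLINC01534-2 the summed FPKM of the ring was 0.919 of parent.

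In the constitutive beta ring, 6 of 7 genes rose with siLINC01534-1, none fell and none passed the threshold with siLINC01534-2. Of all genes tested, 21.8% rose and 24.5% fell with siLINC01534-1, and 11.1% rose and 11.8% fell with siLINC01534-2. PSMB5, the subunit with chymotrypsin-like activity, had 290 and 291 FPKM in parent, 355 and 347 in siLINC01534-1 and 292 and 279 in siLINC01534-2. PSMB6, with caspase-like activity, had 269 and 302 in parent, 387 and 396 in siLINC01534-1 and 263 and 274 in siLINC01534-2. PSMB7, with trypsin-like activity, had 191 and 204 in parent, 251 and 253 in siLINC01534-1 and 183 and 181 in siLINC01534-2. For each catalytic subunit both siLINC01534-1 libraries lay above the other 4. The log2 changes with siLINC01534-1 were 0.27 for PSMB5 (SE 0.036, adjusted p = 0.0025), 0.46 for PSMB6 (SE 0.061, adjusted p = 0.0027) and 0.35 for PSMB7 (SE 0.041, adjusted p = 0.0017). PSMB1, PSMB3 and PSMB4 rose by 0.21, 0.32 and 0.40 and PSMB2 had 0.05 (adjusted p = 0.31). The summed FPKM of the ring was 1.26 of parent with siLINC01534-1 and 0.953 with siLINC01534-2.

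Of the inducible catalytic subunits, PSMB10 fell with siLINC01534-1 while its constitutive counterpart PSMB7 rose, and PSMB9 and PSMB8 could not be resolved. PSMB10 had 41.6 and 44.6 FPKM in parent, 31.8 and 29.3 in siLINC01534-1 and 42.9 and 44.1 in siLINC01534-2. It was lower with siLINC01534-1 without overlap (log2 change -0.48, SE 0.057, adjusted p = 0.0018), while the siLINC01534-2 libraries lay within the parent range. PSMB9 had 3.41 and 2.12 FPKM in parent, 2.41 and 3.04 in siLINC01534-1 and 3.82 and 2.84 in siLINC01534-2, with overlap between all groups. Its log2 change with siLINC01534-1 was 0.00, with a 95% confidence interval of -0.52 to 0.52, and changes inside that interval were not detectable at this depth. PSMB8 had 0.218 and 0.220 FPKM in parent, 0.124 and 0.143 in siLINC01534-1 and 0.505 and 0.105 in siLINC01534-2. With parent replicate 1 taken as 2 reads, these came to about 1 to 4 reads per library, too few to compare. The value of siLINC01534-1 replicate 2 did not fall on a whole number of reads, so the numbers are approximate.

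The inducible and the constitutive subunit of each site were also compared within a library, where scaling cancels. PSMB10 to PSMB7 was 0.218 and 0.218 in parent, 0.127 and 0.116 in siLINC01534-1 and 0.235 and 0.244 in siLINC01534-2. The 3 groups did not overlap, and the mean ratio with siLINC01534-1 was 0.556 of parent and with siLINC01534-2 1.10 of parent. With 2 libraries against 2, the exact two-sided permutation test gave p = 0.333 for each, which is the smallest p the design allows. PSMB9 to PSMB6 was between 0.00621 and 0.0145 in the 6 libraries, and its parent and siLINC01534-1 ranges overlapped (exact permutation p = 0.667). PSMB8 to PSMB5 was at most 0.00173 in the 6 libraries.

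**Figure D3:**
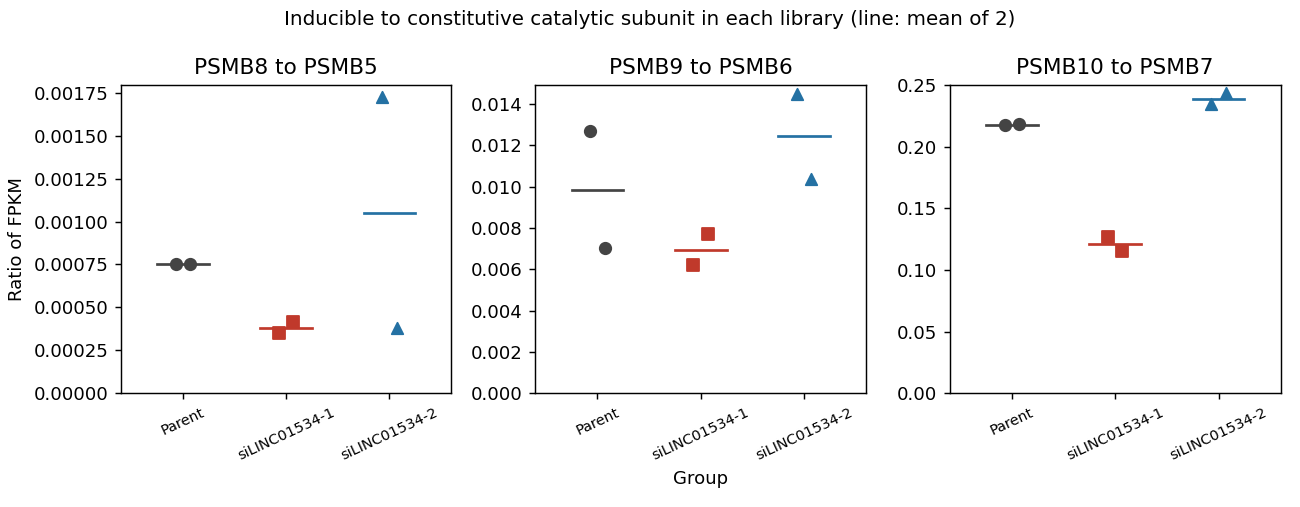
Ratio of FPKM (vertical) of each inducible catalytic subunit to the constitutive one it replaces, in the 2 libraries of each group (horizontal), with a line at the mean. PSMB10 to PSMB7 is 0.127 and 0.116 in siLINC01534-1 and at least 0.218 in the other 4 libraries, whereas the ratios for PSMB8 and PSMB9 rest on few reads and scatter.

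In the base of the regulatory particle, 6 of 9 genes rose with siLINC01534-1 and 1 fell, against 21.8% and 24.5% of all genes tested. PSMC4, an ATPase subunit, had 107 and 114 FPKM in parent, 166 and 172 in siLINC01534-1 and 110 and 99.0 in siLINC01534-2. Its log2 change of 0.61 (SE 0.063, adjusted p = 0.0011) was the largest rise among the proteasome genes with siLINC01534-1. PSMC6, an ATPase of the same ring, had 74.1 and 67.9 FPKM in parent, 45.3 and 40.9 in siLINC01534-1 and 72.9 and 64.5 in siLINC01534-2. Its siLINC01534-1 libraries lay below all others (log2 change -0.71, SE 0.083, adjusted p = 0.0017), and those of siLINC01534-2 overlapped parent. Subunits of the same ATPase ring thus moved in opposite directions with siLINC01534-1.

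The scaffold subunits of the base rose with siLINC01534-1 and fell with siLINC01534-2. PSMD2, a large scaffold and ubiquitin receptor of the base, had 243 and 258 FPKM in parent, 318 and 335 in siLINC01534-1 and 215 and 205 in siLINC01534-2. PSMD1, its partner scaffold, had 92.0 and 96.9 in parent, 118 and 117 in siLINC01534-1 and 80.3 and 79.5 in siLINC01534-2. For each, parent lay between the siRNA groups without overlap. PSMD2 changed by 0.38 (SE 0.048, adjusted p = 0.0023) and by -0.26 (adjusted p = 0.020), and PSMD1 by 0.31 (SE 0.037, adjusted p = 0.0019) and by -0.24 (adjusted p = 0.012). PSMD4, a ubiquitin receptor, had 170 and 183 in parent, 191 and 194 in siLINC01534-1 and 153 and 148 in siLINC01534-2. It was lower with siLINC01534-2 (log2 change -0.23, adjusted p = 0.023) and had 0.13 with siLINC01534-1 (adjusted p = 0.073). Of the remaining base ATPases, PSMC1, PSMC2 and PSMC5 rose by 0.29 to 0.38 with siLINC01534-1, and PSMC3 had -0.04 (adjusted p = 0.34). The summed FPKM of the base was 1.19 of parent with siLINC01534-1 and 0.890 with siLINC01534-2.

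In the lid, 7 of 8 genes rose with siLINC01534-1 and none fell, against 21.8% and 24.5% of all genes tested. PSMD14, the deubiquitinase, had 131 and 135 FPKM in parent, 192 and 194 in siLINC01534-1 and 141 and 137 in siLINC01534-2. Both siLINC01534-1 libraries lay above all others (log2 change 0.53, SE 0.034, adjusted p = 0.00024), and the value with siLINC01534-2 was 0.06 (adjusted p = 0.24). PSMD6, a scaffold of the lid, had 94.1 and 95.2 in parent, 136 and 133 in siLINC01534-1 and 98.1 and 95.0 in siLINC01534-2, a log2 change of 0.50 (SE 0.034, adjusted p = 0.00030) with siLINC01534-1.

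PSMD13 showed the largest positive difference between the siRNAs. It had 134 and 131 FPKM in parent, 185 and 186 in siLINC01534-1 and 113 and 105 in siLINC01534-2. Parent lay between the siRNA groups without overlap, with log2 changes of 0.48 (SE 0.045, adjusted p = 0.00083) and -0.28 (adjusted p = 0.012) and a difference between siRNAs of 0.76 (SE 0.045, adjusted p = 0.00030). PSMD3, another scaffold subunit of the lid, had 135 and 136 in parent, 163 and 163 in siLINC01534-1 and 113 and 107 in siLINC01534-2. Its limma log2 changes were 0.27 (SE 0.036, adjusted p = 0.0027) and -0.30 (adjusted p = 0.0057). PSMD7, PSMD11 and PSMD12 rose by 0.27 to 0.43 with siLINC01534-1, and PSMD8 had -0.06 (adjusted p = 0.31) and was lower by 0.20 with siLINC01534-2. The summed FPKM of the lid was 1.27 of parent with siLINC01534-1 and 0.945 with siLINC01534-2.

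Of the activators, PSME4 rose with siLINC01534-1 and the others did not pass the threshold with either siRNA. Over all genes tested, 21.8% rose and 24.5% fell with siLINC01534-1, and 11.1% rose and 11.8% fell with siLINC01534-2. PSME4, the nuclear activator PA200, had 24.5 and 23.9 FPKM in parent, 28.1 and 28.6 in siLINC01534-1 and 24.5 and 24.8 in siLINC01534-2 (log2 change 0.22, SE 0.039, adjusted p = 0.0069, with siLINC01534-1). PSME1, a subunit of the interferon-inducible ring PA28, had 98.6 and 101 in parent, 105 and 107 in siLINC01534-1 and 103 and 102 in siLINC01534-2. PSME2, its partner subunit, had 135 and 149 in parent, 136 and 139 in siLINC01534-1 and 157 and 147 in siLINC01534-2. PSME1 thus lay slightly above parent in all 4 siRNA libraries, and the PSME2 ranges overlapped in every comparison with parent. PSME3, which forms a ring of its own in the nucleus, had 91.4 and 96.6 in parent, 91.2 and 98.6 in siLINC01534-1 and 86.7 and 81.1 in siLINC01534-2.

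POMP, the chaperone that brings beta subunits onto the alpha ring and is destroyed when the core is complete, had 98.3 and 93.0 FPKM in parent, 109 and 114 in siLINC01534-1 and 102 and 93.1 in siLINC01534-2. It was higher with siLINC01534-1 without overlap (log2 change 0.22, SE 0.058, adjusted p = 0.028), and the siLINC01534-2 range overlapped that of parent. The call was lost when any 1 of the 4 parent and siLINC01534-1 libraries was left out. Summed over the 42 genes, FPKM was 1.14 of parent with siLINC01534-1 and 0.935 with siLINC01534-2.

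**Figure D4:**
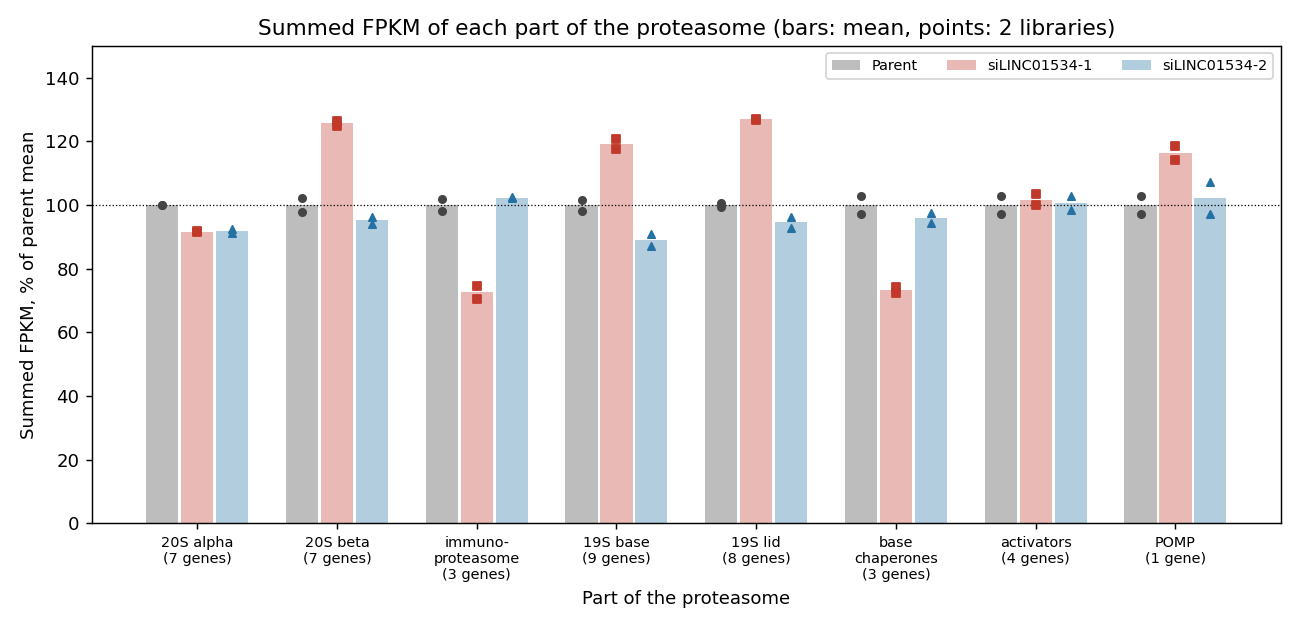
Summed FPKM of each part of the proteasome as a percentage of the parent mean (vertical), by part (horizontal), with bars at the mean and points for the 2 libraries of each group. The siLINC01534-1 bars stand above parent for the beta ring, base, lid and POMP and below it for the alpha ring, immunoproteasome and base chaperones, with ratios from 0.725 to 1.27, while those of siLINC01534-2 lie between 0.890 and 1.02.

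Most of the genes that fell with siLINC01534-1, 5 of 6, held a sequence that the choice of genes did not use. An siRNA can lower messages other than its target when bases 2 to 8 of its antisense strand, the seed, pair with their 3′ UTR. The seed of siLINC01534-1, taken from the antisense strand in the study's methods, pairs with the letters GAATAAA, which include the polyadenylation signal AATAAA that lies near the end of many messages. Of the 6 genes lower with siLINC01534-1, 5 held at least 1 match in the 3′ UTR of their longest coding transcript, as did 1 of the 26 that were higher and 2 of the 9 that did not pass the threshold. PSMD10 was the gene that fell without a match, PSMD12 the gene that rose with one, and PSMB2 and PSMD8 held matches without passing the threshold. The windows of 30 bases around the sites of the genes that fell, and that of PSMD12, are shown because most genes that fell held such a site, with the seed match in capitals, 5′ to 3′ on the strand of the gene (GRCh37, GENCODE transcripts).
PSMD5, chr9:123578353-123578382, minus strand: ttttttagattGAATAAAatttgtaaatca
PSMD5, chr9:123579538-123579567, minus strand: caaaaataaatGAATAAAataaaaacctgc
PSMA7, chr20:60711893-60711922, minus strand: agcatcatgatGAATAAAatgtctttgctt
PSMC6, chr14:53194431-53194460, plus strand: taaaagtatatGAATAAAaatatgagtaac
PSMC6, chr14:53194670-53194699, plus strand: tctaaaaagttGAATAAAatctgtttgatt
PSMA4, chr15:78841501-78841530, plus strand: ccctttttttgGAATAAAatttggaaaatg
PSMA4, chr15:78841529-78841558, plus strand: tggaaatgaagGAATAAAttctctgtagca
PSMA4, chr15:78844053-78844082, plus strand: tactgatgaatGAATAAAtaccctggatat
PSMB10, chr16:67968416-67968445, minus strand: ggaacaaggggGAATAAAcccagaaaatac
PSMD12, chr17:65334039-65334068, minus strand: gaaaacctggaGAATAAActcatactttaa
The matches lay at different places. Those of PSMB10 and PSMD12 each lay 19 bases before the annotated end of the message. The match of PSMA7 began at base 2 of its 3′ UTR, whereas PSMA4, with 3 sites, was annotated with a 3′ UTR of 3473 bases. PSMB2 and PSMD8, which did not pass the threshold with siLINC01534-1 and whose windows are not shown, had sites in similar places. PSMB2 held 3 sites in a 3′ UTR of 3726 bases, and the match of PSMD8 lay 20 bases before the annotated end.

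The same letters were counted in all genes. Of 10543 tested genes with an annotated 3′ UTR, 26.8% held the seed match of siLINC01534-1, which comprised 42.5% of the genes lower with siLINC01534-1, 17.2% of those higher and 23.1% of the rest. The median 3′ UTR length was 1370 bases for all lower genes and 1500 for all higher genes, but 870 bases for the 6 proteasome genes that fell and 420 for the 26 that rose, so length moved with direction among the proteasome genes. The seed match of siLINC01534-2, TTCGAGT, was in the 3′ UTR of 1.92% of the genes and in none of the 41 proteasome genes with an annotated 3′ UTR that were tested. The part of the seed match in the changes was not tested.

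Promoters were examined because many of the genes moved together. RefSeq sequences from 250 bases before to 50 after the start (GRCh38.p14) were found for 37 of the 42 genes, all but PSMA7, PSMB1, PSMB6, PSMB7 and PSMD4, and searched on both strands. The core of the antioxidant response element, the type of site that NRF1 binds, TGACNNNGC, was in 29.7% of the 37 promoters, compared with 13.6% of all 27305 promoters and 15.6% of those of tested genes. It was found in genes that rose with siLINC01534-1, such as PSMC4 and PSMD3, and in PSMD5, which fell. CCAAT was in 45.9% of the 37 against 35.7% of all promoters, the ETS site CCGGAAG in 32.4% against 10.7%, and the GC box GGGCGG in 64.9% against 44.6%. Among promoters of tested genes these 3 motifs were in 36.7%, 20.3% and 71.9%. The core of the interferon-stimulated response element was in the promoters of PSMA4, PSMB4, PSMB10, PSME1 and PSME2, 13.5% of the 37 against 3.65% of all, and the GAS element TTCNNNGAA in 10.8% against 7.88%. Among promoters of tested genes these were in 2.58% and 6.03%. The CRE core TGACGT was in 5.41% against 8.32% of all promoters and 12.2% of those of tested genes, and the ATF4 element TGATGNAA in none against 3.67% and 1.50%. The 250 bases before the start of 4 genes are shown, 5′ to 3′, for the steepest fall (PSMD5), the lid enzyme that rose (PSMD14), the gene called in opposite directions with the siRNAs under every alternative run (PSMD3) and the inducible subunit that fell (PSMB10). Their letters are those of RefSeq, and each was matched to 1 place in GRCh37, whose coordinates are given.
PSMD14, chr2:162164686-162164935, plus strand, CCAAT box in capitals: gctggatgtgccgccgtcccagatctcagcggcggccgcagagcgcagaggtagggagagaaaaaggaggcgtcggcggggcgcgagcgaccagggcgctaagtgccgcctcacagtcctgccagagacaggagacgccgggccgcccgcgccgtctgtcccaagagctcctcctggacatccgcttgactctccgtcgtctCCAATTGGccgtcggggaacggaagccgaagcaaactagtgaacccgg
PSMD3, chr17:38136810-38137059, plus strand, antioxidant response element core in capitals: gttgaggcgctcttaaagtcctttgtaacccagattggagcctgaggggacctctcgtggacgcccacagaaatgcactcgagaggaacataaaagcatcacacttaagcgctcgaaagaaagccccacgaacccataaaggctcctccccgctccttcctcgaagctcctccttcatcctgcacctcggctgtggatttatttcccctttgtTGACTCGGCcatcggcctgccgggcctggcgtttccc
PSMD5, chr9:123605201-123605450, minus strand, antioxidant response element core in capitals: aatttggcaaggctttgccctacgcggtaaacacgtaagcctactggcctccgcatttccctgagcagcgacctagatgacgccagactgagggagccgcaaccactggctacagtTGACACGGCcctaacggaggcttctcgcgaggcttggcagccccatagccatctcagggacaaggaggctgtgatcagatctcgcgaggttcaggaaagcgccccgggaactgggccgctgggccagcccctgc
PSMB10, chr16:67970754-67971003, minus strand, interferon-stimulated response element core in capitals: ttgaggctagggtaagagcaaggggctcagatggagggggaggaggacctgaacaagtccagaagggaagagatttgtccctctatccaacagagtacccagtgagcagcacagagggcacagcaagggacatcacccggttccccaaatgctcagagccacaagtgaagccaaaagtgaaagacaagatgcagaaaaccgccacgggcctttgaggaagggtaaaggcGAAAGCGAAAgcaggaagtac
A match of this kind describes the letters in the window and not a bound site.

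Genes that work with the proteasome were described as lists. Their counts are to be read against all genes tested, of which 21.8% rose and 24.5% fell with siLINC01534-1 and 11.1% rose and 11.8% fell with siLINC01534-2. Of 12 tested subunits, chaperones and bound proteins outside the 42, 7 rose and 1 fell with siLINC01534-1, and 0 rose and 2 fell with siLINC01534-2. PSMG1, a chaperone of the alpha ring, fell with both, by 0.54 (SE 0.070, adjusted p = 0.0025) and by 0.29 (adjusted p = 0.038). Its values were 78.5 and 84.7 FPKM in parent, 56.1 and 55.8 in siLINC01534-1 and 70.9 and 62.5 in siLINC01534-2, without overlap with parent. The largest rise in the list, chosen after its values were seen, was that of PAAF1, a chaperone of the base, at 7.51 and 9.08 FPKM in parent, 17.8 and 16.8 in siLINC01534-1 and 9.54 and 7.91 in siLINC01534-2. Its log2 change with siLINC01534-1 was 0.98 (SE 0.115, adjusted p = 0.0017), opposite to that of PSMD5.

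Of 6 genes for ubiquitin and its activating enzymes, 2 rose and 1 fell with siLINC01534-1, and 1 rose and 1 fell with siLINC01534-2, where 21.8% and 24.5% of all genes tested rose and fell with the former and 11.1% and 11.8% with the latter. Of 14 tested genes that deliver substrates, 8 rose and 1 fell with siLINC01534-1, and 1 rose and 3 fell with siLINC01534-2. ZFAND5, a protein that binds the proteasome and stimulates it, had 24.7 and 24.5 FPKM in parent, 40.5 and 41.1 in siLINC01534-1 and 29.0 and 28.5 in siLINC01534-2. It rose with both siRNAs without overlap between any groups (log2 changes 0.71 and 0.22, adjusted p = 0.00014 and 0.014).

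Of 9 genes linked to the control by NRF1, 7 rose and 1 fell with siLINC01534-1, and 5 rose and 0 fell with siLINC01534-2; 2 of the 9, VCP and DDI2, are also in the list for delivery. NFE2L1 had 66.8 and 69.5 FPKM in parent, 81.0 and 78.6 in siLINC01534-1 and 72.5 and 74.8 in siLINC01534-2. Both siRNA groups lay above parent, with log2 changes of 0.23 (SE 0.039, adjusted p = 0.0068) and 0.11 (adjusted p = 0.10). MAFF, a small partner protein of NRF1, rose by 1.27 and 1.35 with the siRNAs, SEL1L, an adaptor of degradation at the endoplasmic reticulum, by 0.83 and 0.80, and SYVN1, the ubiquitin ligase it works with, by 0.82 and 0.48. In this list genes rose with siLINC01534-2 while no proteasome gene did.

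Ornithine decarboxylase, encoded by ODC1, is degraded by the proteasome without ubiquitin when antizyme binds it. Its degron was the study's reporter of proteasome activity. In HCT116 cells with low proteasome activity, the study reports that inhibiting LINC01534 had no significant effect on that activity. The FPKM values here measure RNA and not activity. ODC1 had 406 and 395 FPKM in parent, 501 and 497 in siLINC01534-1 and 358 and 357 in siLINC01534-2. Parent lay between the siRNA groups without overlap, with log2 changes of 0.32 (SE 0.031, adjusted p = 0.00091) and -0.16 (adjusted p = 0.019). Of the 6 genes of this list, 1 rose and 3 fell with siLINC01534-1, and 0 rose and 3 fell with siLINC01534-2. The antizyme genes OAZ1 and OAZ2 fell with both siRNAs, by log2 changes of -0.32 and -0.24 for OAZ1 and -0.25 and -0.47 for OAZ2.

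Of 8 tested genes of interferon control and antigen processing, 3 rose and 1 fell with siLINC01534-1, and 3 rose and 0 fell with siLINC01534-2, where 21.8% and 24.5% of all genes tested rose and fell with siLINC01534-1 and 11.1% and 11.8% with siLINC01534-2. TAP1, the peptide transporter that lies beside PSMB9 in the genome, had 17.9 and 21.7 FPKM in parent, 28.0 and 29.6 in siLINC01534-1 and 28.2 and 26.7 in siLINC01534-2. All 4 siRNA libraries lay above parent (log2 changes 0.53 and 0.46, adjusted p = 0.0070 and 0.023), while PSMB9 overlapped parent in both groups.

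**Figure D5:**
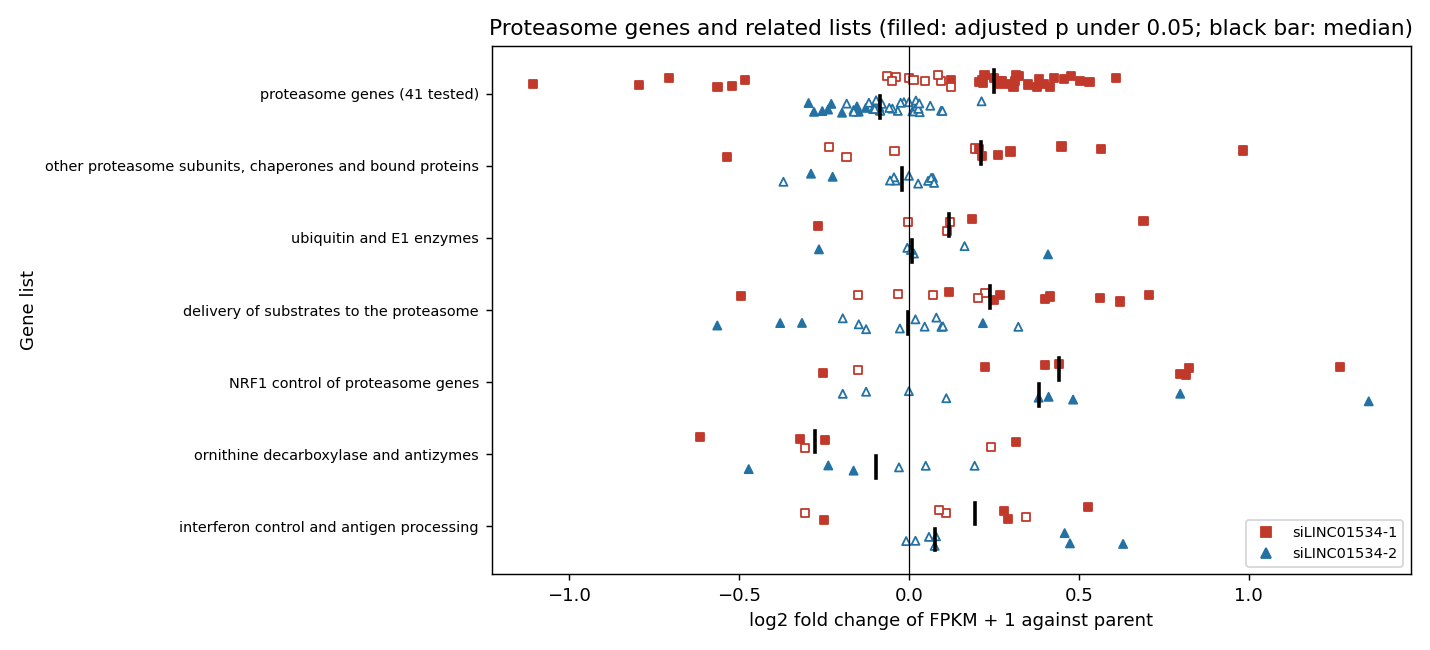
Log2 fold change of FPKM + 1 against parent (horizontal) for the tested proteasome genes and 6 related lists (vertical), with squares for siLINC01534-1 and triangles for siLINC01534-2, filled where the adjusted p was under 0.05 and a black bar at the median. The proteasome medians lie at 0.25 and -0.09, and those of the genes linked to NRF1 at 0.44 and 0.38.

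Annotated pseudogenes named after them existed for 17 of the 42 genes, 43 in all, so reads could have been split with such copies for these genes.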

How the data were processed

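RNA-seq was measured in 6 libraries of HCT116 cells, 2 each of parent, siLINC01534-1 and siLINC01534-2, grouped by their labels. The authors prepared stranded libraries from poly(A) RNA, sequenced 75-base single-end reads, mapped them to hg19 (TopHat2 2.0.13, Bowtie2 2.2.3, SAMtools 0.1.19 in the submitters' processing notes) and deposited FPKM from Cufflinks 2.2.1 (Cuffnorm). Counting by strand was not stated. The RNA kit differs between the labels and the methods.

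From the deposited FPKM, log2(FPKM + 1) was tested with limma 3.58.1 in R 4.3.3 (lmFit, contrasts.fit, eBayes with trend, two-sided), for 12203 genes with a mean of at least 1 FPKM. Groups had 1 mean each and shared 1 estimate of the spread, with Benjamini-Hochberg adjustment over all genes tested and a threshold of 0.05. The study used a fold threshold of 2 and named no test of single genes. Fold changes on this scale understate those of low genes. Ratios were of mean FPKM. On simulated data for siLINC01534-1 against parent, 173 of 200 genes changed by 1 on the log2 scale were recovered among 12203, with 13 others called. Among the proteasome genes tested, only PSMD5 changed by that much with siLINC01534-1, so the recovery of smaller changes was not measured. Alternatives were the pseudocount, the filter, scaling, the libraries in the fit, the trend, a replicate block and each library left out.

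The proteasome genes and the related lists were chosen with earlier results of these data known. Values in every library are given for the catalytic subunits, POMP, the activators and the 5 largest rises and falls past the threshold in each comparison. Of related lists, genes past the threshold with both siRNAs in the same direction are named, at most 3 a list, with NFE2L1, ODC1, TAP1 and LINC01534, and some genes that this rule names are not reported here. Seed matches used the longest coding transcript of GENCODE v44lift37 on GRCh37 (Python 3.11.15).

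Depth was estimated from the spacing of FPKM among genes with a single annotated transcript, since read numbers are not in the values, and it is a rough estimate.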

Additional observations from a re-analysis of the deposited data

Results flagged for a closer look

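For 33 of the 41 proteasome genes tested, the log2 change against parent differed between the siRNAs by the direct test of siLINC01534-1 against siLINC01534-2 (limma, adjusted p under 0.05, 2 libraries per group). Over the 12203 genes tested, 19.5% were higher and 22.3% were lower in siLINC01534-1 than in siLINC01534-2. Each value below is the log2 difference, siLINC01534-1 minus siLINC01534-2.

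The differences were positive for 27 genes. In the alpha ring they were 0.43 for PSMA2, 0.50 for PSMA3, 0.34 for PSMA5 and 0.21 for PSMA6. In the constitutive beta ring they were 0.23 for PSMB1, 0.42 for PSMB3, 0.48 for PSMB4, 0.30 for PSMB5, 0.54 for PSMB6 and 0.47 for PSMB7. In the base they were 0.48 for PSMC1, 0.53 for PSMC2, 0.12 for PSMC3, 0.69 for PSMC4, 0.39 for PSMC5, 0.55 for PSMD1, 0.63 for PSMD2 and 0.35 for PSMD4. In the lid they were 0.56 for PSMD3, 0.48 for PSMD6, 0.33 for PSMD7, 0.42 for PSMD11, 0.25 for PSMD12, 0.76 for PSMD13 and 0.47 for PSMD14. Outside these parts they were 0.19 for PSME4 and 0.19 for POMP.

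The differences were negative for 6 genes, with -1.05 for PSMD5, -0.66 for PSMC6, -0.63 for PSMA7, -0.50 for PSMB10, -0.42 for PSMD10 and -0.41 for PSMA4. Of the 33, 29 stayed past the threshold under every alternative run, and those that did not were PSMB1, PSMC3, PSME4 and POMP.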

How the results depend on the processing

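No proteasome gene that was past the threshold changed direction under any alternative run. Of the genes called, 27 of 32 with siLINC01534-1 against parent, 1 of 11 with siLINC01534-2 against parent, 29 of 33 between the siRNAs and 7 of 18 with both siRNAs against parent were called under all of them. The count for siLINC01534-2 against parent, 11, was 5 with only the groups compared in the fit, 6 with the replicate number as a block and 4 with eBayes without trend. Of all genes tested, 2788 were called in the main fit and 1883, 1993 and 2329 in these. With a library left out, both counts fell. That for both siRNAs was 29 under quantile normalization and 10 to 15 with a library left out. Quantile normalization also gave median log2 changes of 0.35 with siLINC01534-1, 0.36 between the siRNAs and 0.14 with both. It called 2 proteasome genes higher and 6 lower with siLINC01534-2, where 1254 and 1278 of all genes tested were. The cause was not tested. The number past 2-fold, 0 with siLINC01534-2 and 2 between the siRNAs, was 1 in each without siLINC01534-2 replicate 1, and 1 with siLINC01534-2 without its replicate 2, through PSMB8. The mean ratio of PSMB8 to PSMB5 with siLINC01534-1, 0.505 of parent, was 0.771 on FPKM + 1. The replicate numbers are not stated to pair the libraries, and deviations of libraries with the same number correlated at 0.11, 0.03 and -0.05 over 12203 genes, so the block is no more than an alternative. It called 30 proteasome genes with siLINC01534-1, 31 between the siRNAs and 15 with both, where 5114, 4438 and 3892 of all genes tested were called. With 2 libraries per group, a ratio cannot reach an exact p under 0.333. PSMB8 and PSMB9 are limited by depth.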
